A study of Mus musculus with 23 samples.

Results

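Members of the Iroquois family of homeobox genes, Irx1 to Irx6, were examined in heart RNA of mouse embryos (embryonic day 13.5). They are the rows of the deposited count table with these 6 symbols, among 23453 genes in 23 libraries. The family was chosen by the measured counts of Irx3, which were lower in the triple knockout. All 6 passed the filter on low counts. In the 7 triple-knockout hearts Grk2 and Grk5 were homozygous for floxed alleles and Grk6 for a knockout allele, with Nkx2.5Cre, a driver of Cre recombinase in cardiac cells. The 8 haploinsufficient hearts carried the same alleles and driver, except that a wild-type Grk2 allele stood beside the floxed allele. The 8 wild-type hearts had unmodified Grk2, Grk5 and Grk6 and no Cre. All groups carry the strain label C57BL/6. The Cre driver is absent from the wild-type group, so its presence and the loss of the kinases cannot be told apart in comparisons with wild type. These kinases mark active G-protein coupled receptors with phosphate, which lets arrestins bind and quiet them. By its title the series asks about atrioventricular canal defects in hearts that lack them.

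Iroquois proteins are transcription factors of the TALE homeodomain class, and they act in tissue patterning, mostly as repressors. In mammals they lie in 2 clusters that arose by duplication, one holding Irx1, Irx2 and Irx4 and the other Irx3, Irx5 and Irx6. In the mouse heart Irx4 marks ventricular muscle, where its loss alters ventricular gene expression. Irx3 acts in the ventricular conduction system and on its connexins, and Irx5 shapes the repolarization gradient across the ventricular wall through the potassium channel gene Kcnd2. Irx1 and Irx2 have been found in the ventricular septum. Several family members are also expressed in the epithelium of the embryonic lung.

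In mm10 coordinates of the annotation deposited by the authors, Irx1 occupied chr13:71958232-71963723 on the minus strand, Irx2 chr13:72628978-72634194 on the plus strand and Irx4 chr13:73260497-73269620 on the plus strand. Irx3 occupied chr8:91798511-91801654 on the minus strand, Irx5 chr8:92357796-92361456 and Irx6 chr8:92674402-92680080, the last 2 on the plus strand. Grk6, a deleted gene, lies on the chromosome of the first cluster at 16.5 to 17.8 Mb from its members. In the GENCODE annotation an antisense transcript, Irx3os, overlaps 124 of the 2363 exon bases of Irx3. The libraries did not keep the strand, so reads of Irx3 and Irx3os cannot be told apart there. No other member shared exon bases with another gene.

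Promoter windows from RefSeq (GRCm38.p6, the mm10 build), of 250 bases before to 50 bases after the transcript start, were on hand for 3 members, and are shown because the driver line bears on Nkx2-5, an NK2-class factor. Irx1, Irx5 and Irx6 have no entry. Capitals mark the NK2 core AAGTG or, on the other strand, CACTT. The windows are chr8:91801605-91801904 (minus strand) for Irx3, chr13:72628570-72628869 (plus strand) for Irx2 and chr13:73260247-73260546 (plus strand) for Irx4.
Irx3: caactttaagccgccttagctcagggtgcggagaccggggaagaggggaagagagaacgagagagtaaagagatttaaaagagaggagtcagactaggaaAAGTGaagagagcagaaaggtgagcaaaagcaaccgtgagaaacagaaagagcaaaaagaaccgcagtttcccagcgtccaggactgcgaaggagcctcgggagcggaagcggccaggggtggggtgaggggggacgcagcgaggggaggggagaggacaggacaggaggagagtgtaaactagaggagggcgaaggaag
Irx2: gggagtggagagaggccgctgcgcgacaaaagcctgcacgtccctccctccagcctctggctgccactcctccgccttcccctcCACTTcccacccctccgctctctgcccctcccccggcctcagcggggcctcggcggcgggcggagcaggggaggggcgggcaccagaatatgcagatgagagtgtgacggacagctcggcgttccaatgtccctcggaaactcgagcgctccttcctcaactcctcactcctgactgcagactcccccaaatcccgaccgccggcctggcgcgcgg
Irx4: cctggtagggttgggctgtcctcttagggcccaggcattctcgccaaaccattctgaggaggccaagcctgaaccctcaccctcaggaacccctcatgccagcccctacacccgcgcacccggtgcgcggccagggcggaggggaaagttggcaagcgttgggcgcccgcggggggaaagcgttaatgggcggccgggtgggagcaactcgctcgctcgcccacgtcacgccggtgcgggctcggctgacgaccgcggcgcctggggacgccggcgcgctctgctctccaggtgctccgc
The core stood once in the Irx3 window, with its first base at -150, once on the opposite strand in the Irx2 window at -166, and not in the Irx4 window. Over 32851 promoter windows of the same length, 46.4% held it on either strand. The letters ACANNTGT (the Iroquois site), GGTGTGA (a T-box site) and GATAA (the GATA core), searched on both strands, were in none of the 3 windows and in 7.38%, 3.98% and 25.4% of all windows. Only the NK2 core was found in these windows, so no overlap between motifs was possible. The share of G and C was 56.0% in the Irx3 window, 69.0% for Irx2 and 70.7% for Irx4, beside a median of 52.7%.

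Total counts per library ran from 6657734 to 13864731 in triple-knockout hearts, 1757257 to 11025358 in haploinsufficient hearts and 3838166 to 14050559 in wild-type hearts. A gene with no count could lie at up to 3 counts, counting error alone considered. That level is 0.201 CPM (counts scaled to a common library size) in triple-knockout replicate 1, the library of largest scaled size. In haploinsufficient replicate 2, the smallest, it is 1.75 CPM. Whether replicates were separate embryos is not stated in the labels, so a p-value measures the spread of these libraries, part of which may be technical. The targeted genes, summed over their single-exon rows, were lower in the engineered groups: Grk2 (listed as Adrbk1) averaged 34.5 CPM in triple-knockout, 42.6 in haploinsufficient and 54.3 in wild-type hearts. Grk6 averaged 14.998 CPM in triple-knockout, 15.8 in haploinsufficient and 30.7 in wild-type hearts. Nkx2-5, the gene of the driver, averaged 49.8 ± 12.9 CPM in triple-knockout hearts (SD, n = 7), 70.4 ± 16.2 in haploinsufficient hearts and 98.3 ± 10.4 in wild-type hearts (n = 8 each).

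Some libraries stood apart by markers of lung and foregut, tissues next to the heart that also express Iroquois genes. The 12 marker genes summed to 10.96 to 212 CPM in triple-knockout hearts, 7.34 to 366 in haploinsufficient hearts and 5.35 to 62.4 in wild-type hearts. None of the 12 was at 0 in every library of a group. A marker score, the mean log2 CPM of the 8 markers that passed the filter, set to 0 at the wild-type mean, ran from 0.00 to 4.51 in triple-knockout hearts, from -1.49 to 5.23 in haploinsufficient hearts and from -1.40 to 2.86 in wild-type hearts. It was above 1.5 in 4 triple-knockout, 5 haploinsufficient and 1 wild-type libraries, and above 3.5 in triple-knockout replicates 1 and 7 and haploinsufficient replicates 1, 7 and 8. Results that move with these libraries are given with and without them below. The heart markers were present throughout, with 8 cardiomyocyte genes at summed levels of 46486 to 85557 CPM in triple-knockout hearts, 32336 to 84092 in haploinsufficient hearts and 52131 to 74215 in wild-type hearts.

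Per length of transcript, Irx4 was the most abundant member and Irx6 the least in every group. On the FPKM scale deposited by the authors (fragments scaled by transcript length and library size), Irx4 averaged 25.98 ± 7.59 in triple-knockout hearts (SD, n = 7), 27.2 ± 4.68 in haploinsufficient hearts and 27.6 ± 3.47 in wild-type hearts (n = 8 each). Irx6 averaged 1.53 ± 0.847 FPKM in triple-knockout, 1.53 ± 0.608 in haploinsufficient and 3.61 ± 0.881 in wild-type hearts. The other 4 members lay between 4.72 and 6.10 FPKM in triple-knockout hearts, 7.20 and 8.90 in haploinsufficient hearts and 6.62 and 7.60 in wild-type hearts. Their neighbours in the order differed by less than their spread, while the steps below Irx4 and above Irx6 exceeded it. Irx3 was at place 5 among the members in triple-knockout hearts at 4.72 ± 0.956 FPKM, at place 4 in haploinsufficient hearts at 7.65 ± 2.98 and at place 3 in wild-type hearts at 7.51 ± 1.69. Counts per kilobase of exon gave the same order in each group.

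**Figure D1:**
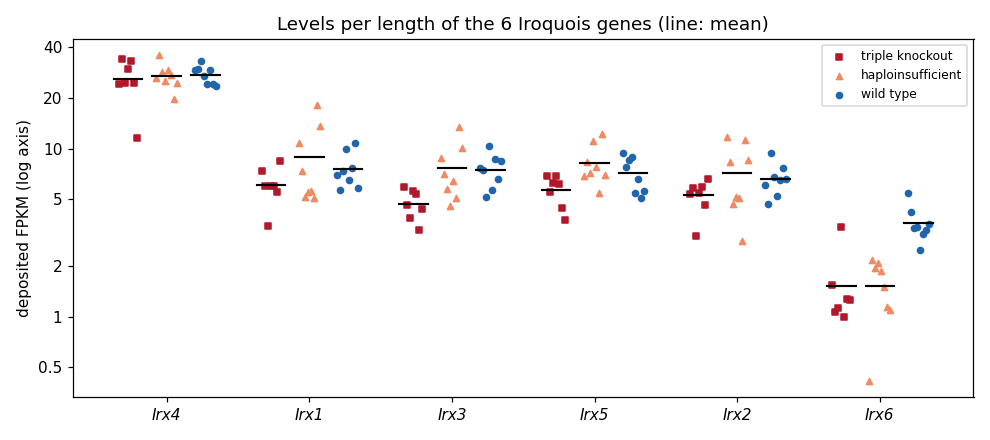
Deposited FPKM of each Iroquois gene (log axis) per library, with triple-knockout hearts left, haploinsufficient hearts in the middle and wild-type hearts right, and the group mean as a line. Irx4 averages 25.98 to 27.6 FPKM and Irx6 1.53 to 3.61, with the other members between.

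Irx6, at the far end of the Irx3 cluster, was lower in both groups with the kinase alleles than in wild type. It had 2.08, 2.82 and 7.89 CPM as lowest, median and highest value in triple-knockout hearts, 0.746, 3.82 and 5.24 CPM in haploinsufficient hearts and 5.74, 7.78 and 11.9 CPM in wild-type hearts. Haploinsufficient and wild-type hearts did not overlap, and triple-knockout and wild-type hearts overlapped through triple-knockout replicate 4 alone, the other 6 libraries reaching at most 3.08 CPM. How many of all genes show no overlap is not given here. These levels rest on 15 to 52 counts per triple-knockout library, 3 to 25 per haploinsufficient library and 29 to 111 per wild-type library. Against wild type, Irx6 fell in triple-knockout hearts by 1.31 ± 0.30 on the log2 scale (SE), which is 2.48-fold lower, with an adjusted p of 0.0224 in edgeR's quasi-likelihood test. In haploinsufficient hearts it fell by 1.27 ± 0.30, which is 2.41-fold lower, with an adjusted p of 0.0230. Between triple-knockout and haploinsufficient hearts the log2 fold change was -0.04 ± 0.32 (95% interval -0.70 to 0.62, adjusted p 0.969).

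The Irx6 difference kept its direction in each of the 2 sets of library IDs. In IDs 1 to 12 the log2 fold change was -1.86 ± 0.43 for triple-knockout hearts (adjusted p 0.0723) and -1.30 ± 0.42 for haploinsufficient hearts (adjusted p 0.411), both against wild type. In IDs 19 to 30 the edgeR value was -0.88 ± 0.38 for triple-knockout hearts (adjusted p 0.564) and -1.22 ± 0.39 for haploinsufficient hearts (adjusted p 0.121). A term for the difference between the sets gave 0.98 on the log2 scale for triple-knockout hearts (unadjusted p 0.103, adjusted over all genes 0.714). For haploinsufficient hearts it gave 0.07 (unadjusted p 0.911, adjusted 0.987). With the marker score as a term in the edgeR fit, Irx6 stood at -1.04 ± 0.31 in triple-knockout hearts (adjusted p 0.0943) and -1.02 ± 0.31 in haploinsufficient hearts (adjusted p 0.101). Without the 5 libraries scoring above 3.5 it stood at -1.26 ± 0.30 in triple-knockout hearts (adjusted p 0.0365) and -0.89 ± 0.31 in haploinsufficient hearts (adjusted p 0.201), where it was no longer called. Without triple-knockout replicate 4 the log2 fold change in triple-knockout hearts was -1.67 (adjusted p 0.000728), and it was no longer called without triple-knockout replicates 1, 2 or 3 or wild-type replicate 1 (adjusted p 0.0563 to 0.0828). In haploinsufficient hearts Irx6 was no longer called without haploinsufficient replicate 7 or wild-type replicates 1 or 8 (adjusted p 0.0503 to 0.0633).

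**Figure D2:**
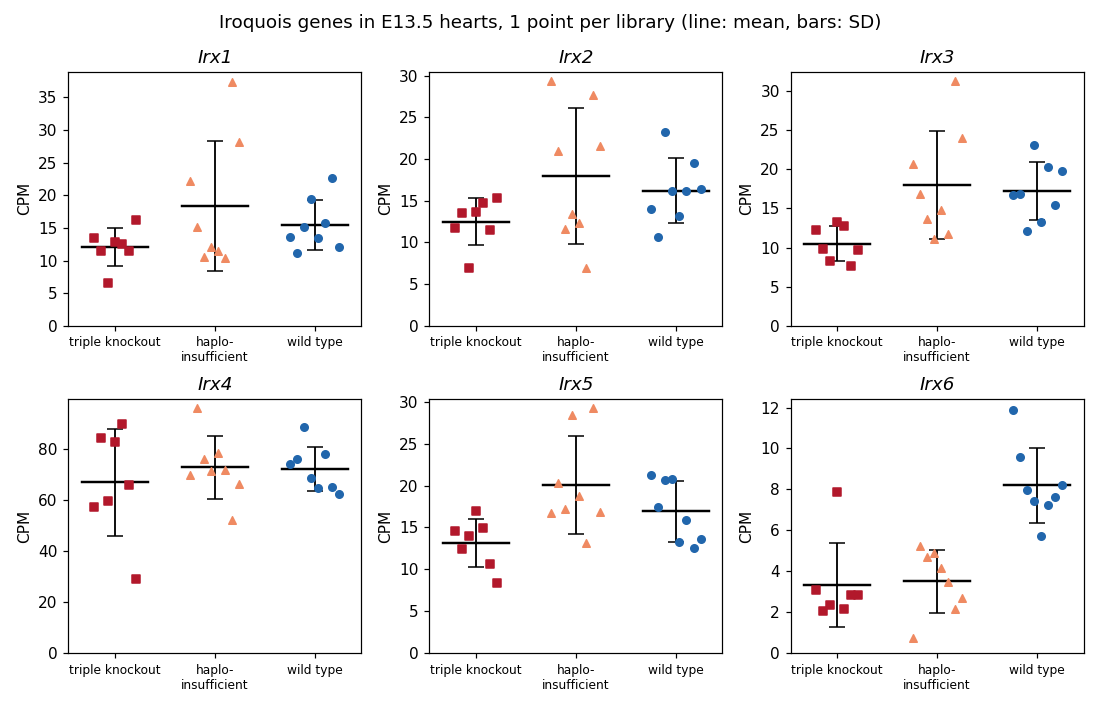
CPM of each Iroquois gene, 1 point per library, with triple-knockout hearts left, haploinsufficient hearts in the middle and wild-type hearts right. Lines are means and bars SD. For Irx6, 6 of 7 triple-knockout points and all 8 haploinsufficient points lie below the lowest wild-type point at 5.74 CPM.

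Irx3 had 7.60, 9.82 and 13.2 CPM as lowest, median and highest value in triple-knockout hearts, 11.1, 15.9 and 31.3 CPM in haploinsufficient hearts and 12.1, 16.7 and 23.03 CPM in wild-type hearts. The highest triple-knockout libraries lay within the lower part of both other groups. The triple-knockout libraries chose this gene, so its log2 fold changes of -0.71 ± 0.19 against wild type and -0.80 ± 0.20 against haploinsufficient hearts are a description. The value against wild type was -0.74 ± 0.26 in IDs 1 to 12 and -0.69 ± 0.28 in IDs 19 to 30, and -0.74 ± 0.18 without the 5 libraries of highest marker score. These are parts of the libraries that chose the gene, so they are no separate check. The value against haploinsufficient hearts was -0.40 ± 0.21 without those 5 libraries. In haploinsufficient hearts, set against the same wild-type libraries as used in the choice, Irx3 differed by 0.08 ± 0.19 (95% interval -0.30 to 0.47, adjusted p 0.864), and by -0.34 ± 0.19 without the 5 libraries (adjusted p 0.473).

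Irx5, the neighbour of Irx3, had 8.37, 14.0 and 17.0 CPM as lowest, median and highest value in triple-knockout hearts, 13.2, 17.9 and 29.3 CPM in haploinsufficient hearts and 12.6, 16.7 and 21.3 CPM in wild-type hearts. All groups overlapped. The log2 fold change in triple-knockout hearts was -0.33 ± 0.17 against wild type (95% interval -0.68 to 0.01, adjusted p 0.489). It was negative and not called in any of 28 alternatives, at -0.55 ± 0.21 in IDs 1 to 12, -0.13 ± 0.25 in IDs 19 to 30 and -0.02 ± 0.19 without the libraries scoring above 1.5. Against haploinsufficient hearts it was -0.61 ± 0.17 (interval -0.96 to -0.26, adjusted p 0.0970), a difference that DESeq2 called (adjusted p 0.0298) and edgeR called without haploinsufficient replicate 3 (adjusted p 0.0407). The value was -0.58 in IDs 1 to 12 and -0.64 in IDs 19 to 30, and -0.41 ± 0.19 without the 5 libraries of highest marker score (adjusted p 0.617). Haploinsufficient hearts differed from wild type by 0.28 ± 0.16 (interval -0.05 to 0.62, adjusted p 0.390).

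Irx1 and Irx2, the adjacent pair of the other cluster, varied most among haploinsufficient hearts. Irx1 had 6.52, 12.6 and 16.2 CPM as lowest, median and highest value in triple-knockout hearts, 10.4, 13.6 and 37.4 CPM in haploinsufficient hearts and 11.1, 14.4 and 22.6 CPM in wild-type hearts. Irx2 had 6.94, 13.6 and 15.3 CPM in triple-knockout hearts, 6.92, 17.2 and 29.4 CPM in haploinsufficient hearts and 10.6, 16.2 and 23.3 CPM in wild-type hearts. The coefficient of variation of Irx1 was 24.2% in triple-knockout, 54.1% in haploinsufficient and 25.1% in wild-type hearts. Triple-knockout hearts differed from wild type by -0.36 ± 0.24 for Irx1 (interval -0.85 to 0.12, adjusted p 0.641) and by -0.38 ± 0.23 for Irx2 (interval -0.86 to 0.09, adjusted p 0.599). Over the 28 alternatives the Irx1 value was negative throughout and called in 1, at -0.76 ± 0.18 with the marker score as a term (adjusted p 0.0259, against up to 0.932 in the others), and Irx2 ran from -0.66 to -0.24 and was called in 0. Haploinsufficient hearts differed from wild type by 0.28 ± 0.23 for Irx1 (adjusted p 0.570) and 0.16 ± 0.23 for Irx2 (adjusted p 0.769). Both signs turned without the 5 libraries of highest marker score, to -0.38 ± 0.20 for Irx1 and -0.38 ± 0.23 for Irx2. Against haploinsufficient hearts, triple-knockout hearts stood at -0.64 ± 0.24 for Irx1 (adjusted p 0.207) and -0.54 ± 0.24 for Irx2 (adjusted p 0.276), and at -0.11 ± 0.22 for Irx1 and -0.03 ± 0.26 for Irx2 without those libraries.

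Irx4, the ventricular member, had 28.8, 65.8 and 89.6 CPM as lowest, median and highest value in triple-knockout hearts, 52.2, 71.5 and 96.0 CPM in haploinsufficient hearts and 62.4, 71.2 and 88.3 CPM in wild-type hearts. The lowest value was that of triple-knockout replicate 7, a library of high marker score. Triple-knockout hearts differed from wild type by -0.10 ± 0.15 (interval -0.41 to 0.22, adjusted p 0.888), from haploinsufficient hearts by -0.10 ± 0.16 (interval -0.42 to 0.22, adjusted p 0.812), and haploinsufficient hearts from wild type by 0.00 ± 0.15 (interval -0.31 to 0.31, adjusted p 0.999). Against wild type these intervals exclude a change of Irx4 as large as that of Irx6. Without triple-knockout replicate 7 the sign turned, to 0.02 ± 0.12 against wild type and against haploinsufficient hearts. In bulk tissue, fewer cells of a type and less RNA per cell cannot be told apart for any of these genes.

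In triple-knockout against wild-type hearts edgeR called 1 of the 5 members tested, Irx6, which was lower, beside 1.18% of 13941 genes in either direction and 0.689% lower. In haploinsufficient against wild-type hearts it called 1 of 6 members, Irx6 again, which was lower, beside 2.28% of genes in either direction and 1.36% lower. These comparisons share the wild-type libraries. In triple-knockout against haploinsufficient hearts it called 0 of 5 members, beside 0.395% of genes in either direction and 0.316% lower. Of those 5, Irx1, Irx2 and Irx5 had unadjusted p-values under 0.05. The share of all genes at that level is not given here, but Irx2, at an edgeR p of 0.0303, was only at place 1534 of the 13941 genes. DESeq2, which called more genes than edgeR in this comparison, called Irx5.

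**Figure D3:**
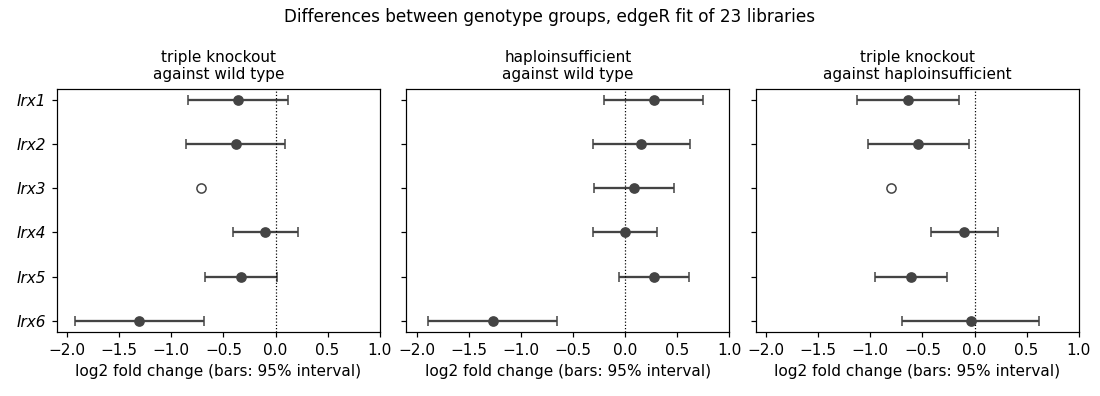
Log2 fold change of each Iroquois gene in each comparison from the edgeR fit, with 95% intervals as bars. Open points without a bar mark Irx3 where triple-knockout libraries chose it. Irx6 is at -1.31 and -1.27 against wild type and at -0.04 between triple-knockout and haploinsufficient hearts.

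Members were compared in pairs across the 23 libraries after the means of genotype and ID set were removed, with permutation of libraries within genotype. The member pairs and the relations of each member to the marker score made 21 relations, adjusted together. Irx1 and Irx2 varied together, with Pearson's r of 0.84 (permutation p 2e-05, adjusted 0.00042) and Spearman's rho of 0.84 (p 9e-05, adjusted 0.00189). The correlation was 0.79 without the 2 libraries farthest out, 0.92 within triple-knockout, 0.84 within haploinsufficient and 0.60 within wild-type hearts, and 0.81 and 0.87 within the ID sets. Irx4, the other member of that cluster, did not vary with them past the threshold, with r of -0.29 (permutation p 0.127, adjusted 0.268) and rho of -0.25 for Irx1 and r of -0.07 (permutation p 0.724, adjusted 0.760) and rho of -0.02 for Irx2. Irx1 and Irx3, on different chromosomes, had r of 0.70 (permutation p 0.00151, adjusted 0.00793) and rho of 0.68 (p 0.00241, adjusted 0.0169). It is given because it was the 1 pair across the clusters past the threshold after adjustment. That relation was 0.54 without the 2 farthest libraries and 0.96 within haploinsufficient hearts, but 0.48 within triple-knockout and 0.11 within wild-type hearts. Within the other cluster, Irx3 and Irx5 had r of 0.43 (permutation p 0.0769, adjusted 0.202) and rho of 0.33 (adjusted 0.318). Irx3 and Irx6 had r of -0.24 (permutation p 0.391, adjusted 0.456) and rho of -0.30, and Irx5 and Irx6 had r of 0.30 (permutation p 0.273, adjusted 0.409) and rho of 0.19.

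The marker score moved with some members and not with others. It correlated with Irx1 at r of 0.76 (permutation p 0.00079, adjusted 0.00553) and rho of 0.60 (p 0.0115, adjusted 0.0486), and with Irx3 at r of 0.64 (p 0.00568, adjusted 0.0239) and rho of 0.59 (p 0.0116, adjusted 0.0486). Without the 2 farthest libraries r was 0.63 for Irx1 and 0.47 for Irx3. Irx1 reached r of 0.91 within haploinsufficient hearts but 0.11 within triple-knockout and 0.12 within wild-type hearts, so the relation rested on the haploinsufficient libraries. Irx3 reached 0.80 within haploinsufficient hearts, but -0.08 within triple-knockout and 0.47 within wild-type hearts. Irx4 ran the other way, with r of -0.64 (permutation p 0.00019, adjusted 0.00199), rho of -0.70 (p 0.00105, adjusted 0.0110) and -0.67 without the 2 farthest libraries, and with -0.81 within triple-knockout, -0.57 within haploinsufficient and 0.15 within wild-type hearts. Irx2 had r of 0.54 (permutation p 0.0391, adjusted 0.117) and rho of 0.42, Irx5 r of 0.18 (p 0.502, adjusted 0.555) and rho of 0.10, and Irx6 r of -0.41 (p 0.126, adjusted 0.268) and rho of -0.44, none past the threshold after adjustment. Within the ID sets, r was 0.58 and 0.84 for Irx1, 0.66 and 0.63 for Irx3, and -0.59 and -0.66 for Irx4. The part of lung or foregut tissue in these levels was not tested.

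**Figure D4:**
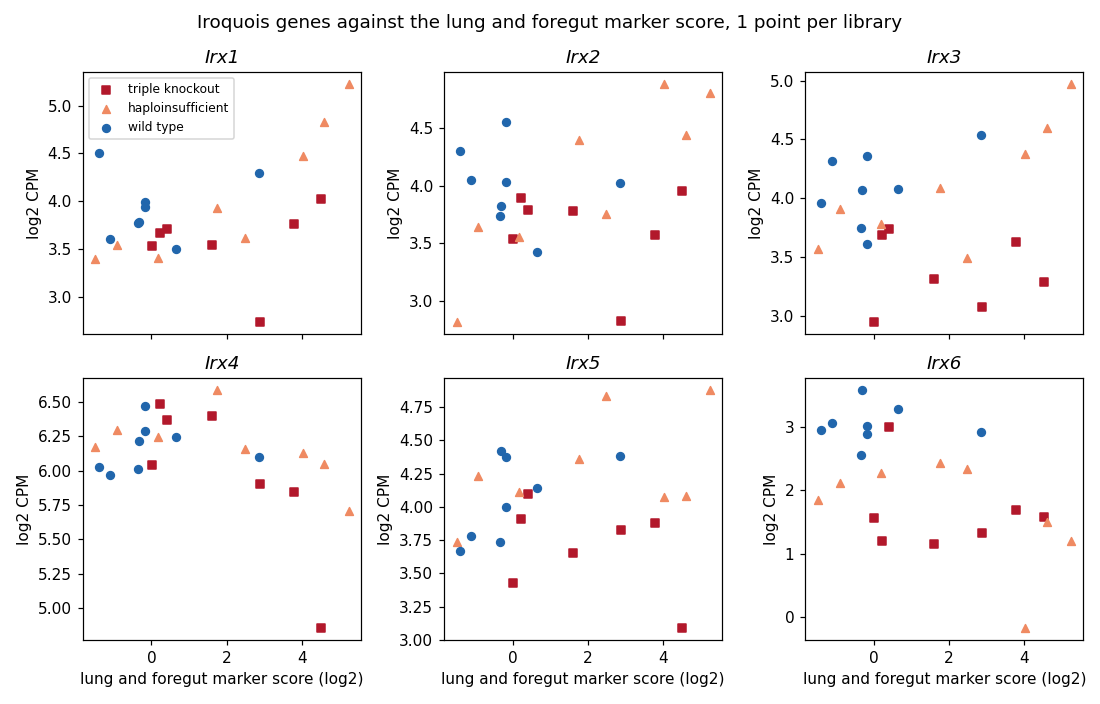
Log2 CPM of each Iroquois gene against the lung and foregut marker score (log2, 0 at the wild-type mean), 1 point per library, coloured by genotype. The 2 haploinsufficient libraries of highest score hold the highest Irx1 and Irx3 levels, and the triple-knockout library at 4.51 holds the lowest Irx4 level.

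The genes whose levels followed each member most closely over the 23 libraries, among 12083 genes compared after the same means were removed, are a description with no test. Irx1 was closest to Cldn5, a tight junction gene of endothelium (r of 0.87), Rgcc (0.85) and Smarcd2, a chromatin remodelling subunit (0.84). Irx2 was closest to Irx1 (0.84), then Myg1 and Ube2e3 (0.82 each). Irx3 was closest to Rcc2 (0.85), the polarity gene Scrib and the DNA repair gene Xpc (0.83 each). Irx4 was closest to Uqcrc1, a subunit of respiratory complex III (0.92), Trim47 (0.90) and Eef1a2, the muscle and neuron form of an elongation factor (0.89). Irx5 was closest to Aup1 (0.82), Rnf166 and Jund (0.75 each), and Irx6 to the phosphorylase kinase subunit gene Phkg2 (0.79), Igf2as and Pkd2l2 (0.75 each). Irx2 was the one member with another member among its 3 closest genes.

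Around the Irx3, Irx5 and Irx6 cluster, neighbours were called in both comparisons with wild type. Of 26 other genes tested within 2 Mb, 2 fell in triple-knockout hearts against wild type, beside the 0.689% of all genes that were lower. The long noncoding RNA 4933436C20Rik, paired in RefSeq with the name Crnde, starts 1.68 kb from the start of Irx5 on the opposite strand. It had 2.68, 4.31 and 5.72 CPM as lowest, median and highest value in triple-knockout hearts, 4.51, 5.43 and 6.97 CPM in haploinsufficient hearts and 5.37, 8.56 and 10.1 CPM in wild-type hearts. The triple-knockout and wild-type ranges overlapped at their edge, and the fall was 0.99 ± 0.18 on the log2 scale (edgeR adjusted p 0.00270). In haploinsufficient hearts 4933436C20Rik differed from wild type by -0.56 ± 0.18 (adjusted p 0.103), and the triple-knockout and haploinsufficient groups differed by -0.44 ± 0.19 (adjusted p 0.268).

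Tox3, an HMG-box gene at the far end of the region, had 11.2, 18.1 and 20.99 CPM as lowest, median and highest value in triple-knockout hearts, 10.99, 15.2 and 23.4 CPM in haploinsufficient hearts and 23.5, 31.8 and 38.5 CPM in wild-type hearts. Neither group with the kinase alleles overlapped wild type, but the highest haploinsufficient value (23.4 CPM) lay just below the lowest wild-type value (23.5 CPM). The share of all genes without overlap is not given here. Tox3 fell by 0.90 ± 0.15 in triple-knockout hearts (edgeR adjusted p 0.000982) and by 0.94 ± 0.15 in haploinsufficient hearts (adjusted p 0.000531). Without the 5 libraries of highest marker score Tox3 stood at -0.76 ± 0.14 in triple-knockout and -0.77 ± 0.14 in haploinsufficient hearts, and 4933436C20Rik in triple-knockout hearts at -0.90 ± 0.20, all still called. In IDs 1 to 12 alone Tox3 stood at -0.79 and in IDs 19 to 30 alone at -0.99 in triple-knockout hearts, and 4933436C20Rik at -1.08 and -0.93, none of these called (adjusted p 0.0723, 0.0887, 0.167 and 0.148).

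In haploinsufficient hearts 3 of the 26 neighbours fell and 2 rose against wild type, beside 2.28% of all genes called in either direction. Besides Tox3, Fto, a demethylase gene that starts 488 kb from Irx3 and whose introns hold regulatory elements acting on it, fell by 0.45 ± 0.12 (edgeR adjusted p 0.0375) and Chd9, a chromatin remodeller gene, by 0.55 ± 0.14 (adjusted p 0.0368). Fto had 52.2, 62.8 and 68.2 CPM as lowest, median and highest value in haploinsufficient hearts and 58.7, 90.3 and 91.7 CPM in wild-type hearts. Arl2bp rose by 0.32 ± 0.08 (adjusted p 0.0413) and Fam192a by 0.43 ± 0.11 (adjusted p 0.0424), both near the edge of the window. These 4 calls other than Tox3 were sensitive to single libraries: of 16 fits that each left out a library, Fto was called in 6, Arl2bp in 5, and Chd9 and Fam192a in 4 each. In triple-knockout hearts Fto stood at -0.25 ± 0.12 (adjusted p 0.438) and Chd9 at 0.00 ± 0.14. Between triple-knockout and haploinsufficient hearts edgeR called 0 of the 26, beside 0.395% of all genes called, with 7 at an unadjusted p under 0.05. The share of all genes at that unadjusted level is not given. An edgeR p of 0.0303, that of Irx2 in this comparison, was at place 1534 of 13941 genes. Around Irx1, Irx2 and Irx4 edgeR called 0 of 25 neighbours in each of the 3 comparisons, with 2 at an unadjusted p under 0.05 in each. Of all genes, 1.18% were called in triple-knockout and 2.28% in haploinsufficient hearts against wild type, and 0.395% between those groups. At such shares 0 of 25 is near the rate over all genes.

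**Figure D5:**
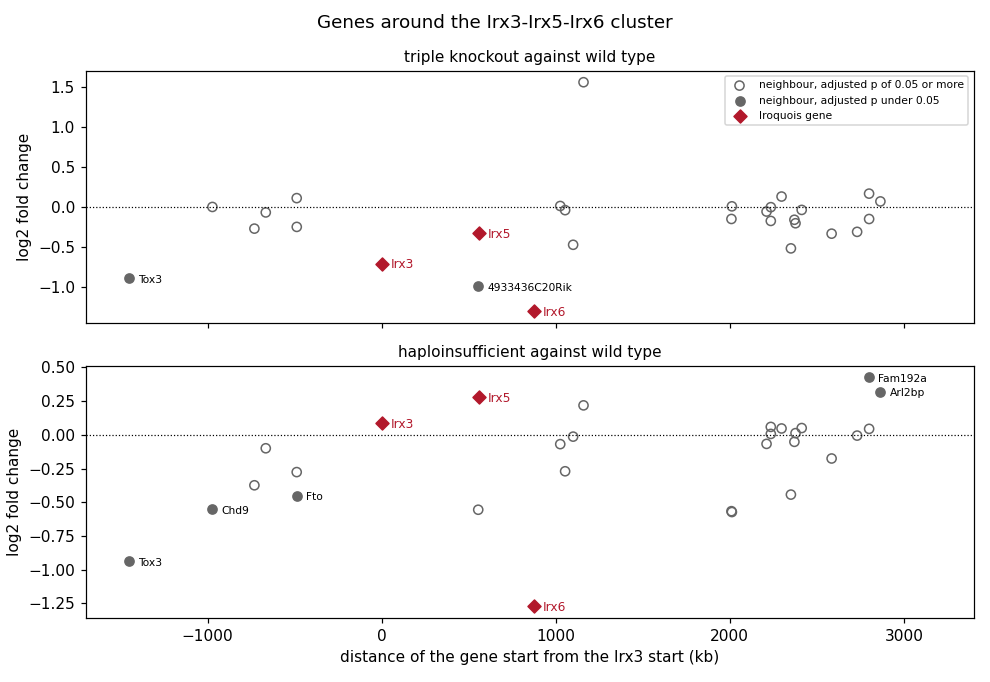
Log2 fold change against wild type of genes around the Irx3, Irx5 and Irx6 cluster by distance of the gene start from that of Irx3 (kb), with triple-knockout hearts above and haploinsufficient hearts below. Diamonds are Iroquois genes and filled circles neighbours with an adjusted p under 0.05. Tox3 is at -0.90 and -0.94.

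Genes reported in the literature to work with or under Iroquois factors in the heart were described as a list of 15, all tested. In triple-knockout hearts against wild type 0 of the 15 were called by edgeR, with 2 at an unadjusted p under 0.05 and a median log2 fold change of 0.07, against 0.01 over all genes, of which 1.18% were called. In haploinsufficient hearts 2 of 15 fell and 0 rose, beside 1.36% of all genes lower and 2.28% called in either direction, with a median of 0.00 against 0.01 over all genes. In triple-knockout against haploinsufficient hearts 0 of 15 were called, beside 0.395% of all genes, with 1 at an unadjusted p under 0.05. Kcnd2, the potassium channel gene repressed by Irx5 in the adult mouse ventricle, had 1.75, 4.93 and 9.46 CPM as lowest, median and highest value in haploinsufficient hearts and 8.23, 10.4 and 14.1 CPM in wild-type hearts. It fell there by 1.10 ± 0.24 (adjusted p 0.0105), and stood at -0.85 ± 0.23 in triple-knockout hearts (adjusted p 0.0749), which had 3.33, 5.31 and 10.3 CPM. Bmp10, a growth factor of the trabeculae, had 29.5, 39.9 and 62.4 CPM in haploinsufficient hearts and 49.7, 75.2 and 93.5 CPM in wild-type hearts, and fell by 0.70 ± 0.17 (adjusted p 0.0257). In triple-knockout hearts Bmp10 averaged 66.1 ± 16.4 CPM, with a log2 fold change of -0.13 ± 0.17 against wild type (adjusted p 0.866). In haploinsufficient hearts the Bmp10 value was -0.54 ± 0.18 without the 5 libraries of highest marker score (adjusted p 0.197), and the call was lost without haploinsufficient replicates 1, 7 or 8 or wild-type replicates 1, 2 or 8 (adjusted p 0.0531 to 0.0663). Within IDs 1 to 12 and IDs 19 to 30 the haploinsufficient value was -1.51 and -0.80 for Kcnd2 and -0.84 and -0.57 for Bmp10, none of them called.

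Neither connexin gene of the list was called. Gja5, the conduction-system connexin gene that depends on Irx3 in mouse, averaged 220 ± 35.1 CPM in triple-knockout, 212 ± 36.1 in haploinsufficient and 213 ± 30.6 in wild-type hearts. Its log2 fold change against wild type was 0.04 ± 0.12 (adjusted p 0.945) in triple-knockout and 0.00 ± 0.11 (adjusted p 0.991) in haploinsufficient hearts. Gja1, repressed by Irx3 there, stood at 0.20 ± 0.18 in triple-knockout hearts (adjusted p 0.776) and 0.08 ± 0.18 in haploinsufficient hearts (adjusted p 0.871).

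Among 11 tested of the 12 other TALE homeobox genes, which include the Meis and Pbx partners of Hox proteins, edgeR called 0 in triple-knockout hearts against wild type, beside 1.18% of all genes, with 2 at an unadjusted p under 0.05. It called 1 in haploinsufficient hearts, which was higher, beside 2.28% of all genes in either direction. That gene was Mkx (Mohawk), the closest relative of the family and a tendon regulator. It had 0.446, 2.61 and 4.98 CPM as lowest, median and highest value in haploinsufficient hearts and 0.00, 0.399 and 1.37 CPM in wild-type hearts, and rose by 2.39 ± 0.51 (adjusted p 0.00953). Mkx passed the filter on low counts through the groups where it was higher, which favours a call of higher. Its levels in haploinsufficient replicates 2 and 3 (0.582 and 0.446 CPM) lay below the level of 3 counts there (1.75 and 0.669 CPM). So did those in wild-type replicates 1, 3, 7 and 8 (0.439, 0.135, 0.00 and 0.148 CPM, against 0.659, 0.404, 0.617 and 0.221 CPM). The rise is therefore measured from a wild-type level near that limit. In triple-knockout hearts Mkx ran from 1.29 to 3.19 CPM and stood at 1.93 ± 0.51 (adjusted p 0.0580). Without the 5 libraries of highest marker score the haploinsufficient value was 2.02 ± 0.62 (adjusted p 0.140). Between triple-knockout and haploinsufficient hearts 0 of the 11 were called, with 1 at an unadjusted p under 0.05.

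Heart compartments were described from the same fit, with no gene lists tested as sets. Of 14 ventricular and trabecular genes tested, 3 fell in triple-knockout and 3 in haploinsufficient hearts against wild type, in each case the natriuretic peptide gene Nppb, the potassium channel subunit gene Kcne1 and the guidance ligand gene Slit2. Of all genes, 0.689% were lower in triple-knockout and 1.36% in haploinsufficient hearts. Nppb averaged 68.1 ± 18.1 CPM in triple-knockout hearts, 71.3 ± 16.2 in haploinsufficient hearts and 119 ± 21.4 in wild-type hearts. Its log2 fold change against wild type was -0.78 ± 0.15 in triple-knockout hearts (adjusted p 0.00436) and -0.75 ± 0.15 in haploinsufficient hearts (adjusted p 0.00504). Kcne1 in haploinsufficient hearts was called in 6 of 16 fits that each left out a library, and Slit2 in triple-knockout hearts in 14 of 15, the call being lost without triple-knockout replicate 3 (adjusted p 0.0518). Over all 28 alternatives Slit2 in triple-knockout hearts was negative throughout (-0.79 to -0.42) and called in 21, and in 7 of the 13 that left out no single library (adjusted p up to 0.298). The median over the list was -0.18 in triple-knockout and -0.04 in haploinsufficient hearts, against 0.01 over all genes in each. Of 12 atrial genes, edgeR called 0 against wild type in either group, with 3 in triple-knockout and 2 in haploinsufficient hearts at an unadjusted p under 0.05. Of 8 cardiomyocyte genes it called 0 in either group, with 1 at an unadjusted p under 0.05 in each, and of 7 epicardial genes 0, with 0 at that level.

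Among 9 endocardial and endothelial genes edgeR called 1 in triple-knockout and 3 in haploinsufficient hearts against wild type, all lower, beside 0.689% of all genes lower in triple-knockout and 1.36% in haploinsufficient hearts. In triple-knockout hearts 3 of the 9 had positive values, 3 had an unadjusted p under 0.05, and the median was -0.10. In haploinsufficient hearts 1 of the 9 was positive, 3 had an unadjusted p under 0.05, and the median was -0.25. Npr3 fell in triple-knockout hearts by 0.46 ± 0.10 (edgeR adjusted p 0.0183, and 0.0606 without triple-knockout replicate 2). Kdr, an endothelial growth factor receptor gene, stood there at 0.29 ± 0.12 (adjusted p 0.305), Pecam1 at 0.02 ± 0.09 (adjusted p 0.976) and Tie1 at 0.00 ± 0.10 (adjusted p 0.998), these 3 being named after their values were seen. Cdh5, Tek and Npr3 fell in haploinsufficient hearts by 0.60 ± 0.11, 0.45 ± 0.09 and 0.50 ± 0.10 (adjusted p 0.00392, 0.00536 and 0.00544). Over the alternatives Npr3 was called in 22 of 28 in triple-knockout hearts and in 26 of 29 in haploinsufficient hearts, where Cdh5 was called in 26 and Tek in 25. Of the 8 lung and foregut genes tested, 0 were called in triple-knockout hearts, with 6 at an unadjusted p under 0.05 and a median log2 fold change of 2.97. In haploinsufficient hearts 2 rose, the claudin gene Cldn6 by 4.23 ± 1.13 (adjusted p 0.0433) and the mesenchymal regulator Foxf1 by 4.12 ± 1.05 (adjusted p 0.0353), beside 2.28% of all genes called in either direction, and the median over the 8 genes was 3.43. Cldn6 and Foxf1 were each called in 6 of 16 fits that left out a library. In wild-type hearts they averaged 1.19 and 1.47 CPM. Both passed the filter on low counts mainly through the groups where they were higher, which favours a call of higher. Of the tested liver (5), thymus (2), neural crest and neuron (6) and skeletal muscle precursor (1) genes, none was called in either group, with 4 neural genes in triple-knockout and 2 liver genes in haploinsufficient hearts at an unadjusted p under 0.05.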

How the data were processed

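RNA of 23 heart libraries was analysed. Per the labels' protocols, RNA was extracted with Trizol and depleted of ribosomal RNA, and single-end libraries were made without keeping the strand. The count table deposited by the authors holds integer counts for 23512 features, of which 59 are single exons of the targeted genes and Cre. The submitters' processing notes name the build mm10, the aligners TopHat2 (version 2.0.10) and Bowtie2, the counter HTSeq, and Cufflinks (version 2.1). FPKM values of 23885 entries were deposited by the authors beside the counts. The deposited annotation of the authors gave gene positions.

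Groups came from the genotype labels and replicates from the titles. In R (version 4.3.3), counts were fitted by the quasi-likelihood method of edgeR (version 4.0.16) over all 23 libraries, with a term for the library ID set (1 to 12 or 19 to 30), TMM scaling and the edgeR expression filter (at least 10 counts, total at least 15). Single-exon features and Cre stayed out of the 13941 genes tested. P-values were two-sided and Benjamini-Hochberg adjusted per comparison, with a threshold of 0.05, and rose, fell and called refer to it. Counts of genes at an unadjusted p under 0.05 are given without the share of all genes at that level. The SE is the log2 fold change divided by the root of F. log2 CPM used a prior count of 1. The edgeR fit was tested on simulated data. The closest pair of libraries of a group, haploinsufficient replicates 1 and 2, differed with a chi-square per degree of freedom of 5.20, so no libraries were merged.

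Correlations used 100000 permutations within genotype. The text names all members, called genes of each list or up to 4 of smallest p, called neighbours within 2 Mb, and the 3 genes most like each member among genes averaging 1 log2 CPM or more, without unnamed gene models and targeted genes. A gene that this rule names is not reported here. Members and lists were chosen with earlier results of these data known. Alternatives were DESeq2 (version 1.42.0), limma (version 3.58.1) on log2(FPKM + 0.1) and log2(FPKM + 1) for genes of at least 0.5 FPKM in 7 libraries, DESeq2 size factors, no filter, no ID set term, a replicate block, only the groups compared, each ID set alone, the marker score as a term, libraries of high marker score left out, and each library left out. Leaving out the 5 libraries with a score over 3.5 was chosen after seeing the data. P-values for Irx3 are given in no comparison with triple-knockout hearts.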

Additional observations from a re-analysis of the deposited data

Results flagged for a closer look

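Among 18 groups of values examined, 6 members in 3 genotypes, 1 library stood away from its group. Irx6 in triple-knockout replicate 4 was 7.89 CPM, the highest of 7, where the gap to the next library took 0.827 of the group's whole range, above Dixon's critical value of 0.568. Chance alone passes that critical value in about 1 in 20 groups, and the rate for a ratio as large as 0.827 was not computed. Its part in the group mean was measured by leaving it out, which moved the log2 fold change of Irx6 against wild type to -1.67 (edgeR adjusted p 0.000728) beside -1.31 with it.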

How the results depend on the processing

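Irx6 was lower than wild type under all 28 alternatives for triple-knockout hearts (log2 fold change -1.86 to -0.78, called in 20) and all 29 for haploinsufficient hearts (-1.36 to -0.89, called in 21). The number of members called against wild type was 0 for both groups in either ID set alone and without libraries scoring over 1.5, which left 3 triple-knockout, 3 haploinsufficient and 7 wild-type libraries. Fewer libraries were tested there. Without the over-1.5 libraries Irx6 stood at -0.78 (adjusted p 0.466) in triple-knockout and -0.96 (adjusted p 0.208) in haploinsufficient hearts. For haploinsufficient hearts the number was also 0 with the marker score as a term and without the 5 libraries over 3.5. With the score as a term, 1 member was called in triple-knockout hearts, Irx1 at -0.76 (adjusted p 0.0259) in place of Irx6. Between triple-knockout and haploinsufficient hearts DESeq2 called 1 member. Leaving out a library gave 0 to 1 members called in each comparison. The Irx6 call in triple-knockout hearts was lost without triple-knockout replicates 1, 2 or 3 (adjusted p 0.0563, 0.0828 and 0.0735) or wild-type replicate 1 (0.0577), and that in haploinsufficient hearts without haploinsufficient replicate 7 (0.0578) or wild-type replicates 1 or 8 (0.0633 and 0.0503).

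Signs of members that were not called also turned, and the cause was not tested. In haploinsufficient against wild-type hearts, Irx1, Irx2 and Irx3 stood at -0.26, -0.22 and -0.25 with the score as a term, at -0.46, -0.64 and -0.30 without libraries over 1.5, and at -0.38, -0.38 and -0.34 without those over 3.5. Irx3 was also -0.13 in IDs 1 to 12 and -0.0268 and -0.0193 with limma at pseudocounts of 0.1 and 1. Irx4, at 0.00 there, was -0.0030 with no filter, -0.0286 and -0.0274 with limma, -0.00035 with no ID set term, -0.0095 with the replicate block and -0.0128 in IDs 19 to 30. In triple-knockout against wild-type hearts Irx4 was 0.0885 with the score as a term, 0.20 without libraries over 1.5 and 0.0952 without those over 3.5. In triple-knockout against haploinsufficient hearts without libraries over 1.5, Irx1, Irx2, Irx4 and Irx6 were 0.12, 0.38, 0.13 and 0.18. Irx6 was 0.00997 with limma at 0.1 and 0.34 in IDs 19 to 30 there, and Irx3 was -0.32 without libraries over 1.5. Leaving out a library gave -0.0553 to 0.0555 for Irx4, -0.0020 to 0.28 for Irx2 and -0.0805 to 0.16 for Irx3 in haploinsufficient against wild-type hearts. It gave -0.20 to 0.0242 for Irx4 in triple-knockout against wild-type hearts, and -0.20 to 0.0243 for Irx4 and -0.40 to 0.0739 for Irx6 against haploinsufficient hearts.

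Replicate numbers were not taken as pairs, since 5 of 22 same-numbered pairs correlated above 0.1 (-0.19 to 0.47). Pairs of different numbers were not set beside them, so a weak pairing is not excluded. With the number as a replicate block, Irx6 was -1.65 (adjusted p 0.00861) in triple-knockout and -1.27 (adjusted p 0.0265) in haploinsufficient hearts. Over all genes the calls ran from 50 to 295 of triple-knockout against wild type (164 as reported), 20 to 614 of haploinsufficient against wild type (318) and 0 to 414 between the engineered groups (55). In the replicate block they were 130, 199 and 0, and with DESeq2 290, 561 and 278. Kcnd2 in haploinsufficient hearts was negative and called in 26 of 29 alternatives, Bmp10 in 18, Tox3 in 27, Fto in 11 and Chd9 in 9, while Arl2bp and Fam192a were called in 8 each. Tox3 and 4933436C20Rik in triple-knockout hearts were called in 26 and 25 of 28. Irx6 rests on as few as 3 counts in a library, which limits its precision.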
